A study of Mus musculus with 8 samples.

Results

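Aggrecan, versican and the genes that make, bind and degrade hyaluronan were followed in cartilage from naive mouse knees and from knees after destabilisation of the medial meniscus (DMM), a surgical model of post-traumatic osteoarthritis. The 9 genes were listed by name, with earlier results of these data known. They are the proteoglycan cores Acan and Vcan, the link protein gene Hapln1, the hyaluronan synthase genes Has1, Has2 and Has3, the hyaluronidase genes Hyal1 and Hyal2, and the receptor gene Cd44. All 9 were among the 17760 genes that DESeq2 gave an adjusted p. RNA sequencing was performed on medial cartilage caps of single male wild-type C57Bl/6J mice, with 4 naive libraries (untreated, day 0, 11 weeks of age) and 4 DMM libraries (left knee, day 42 after surgery, 17 weeks of age). The labels name no sham-operated group, so surgery and the 6 weeks between the groups cannot be told apart. The groups come from separate mice, 1 library each.

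In cartilage, aggrecan carries chondroitin sulfate and keratan sulfate chains that hold water and give the tissue its resistance to compression. Many aggrecan molecules sit along 1 thread of hyaluronan, and the link protein encoded by Hapln1 locks each of them in place. Hyaluronan itself is a plain sugar polymer extruded through the cell membrane by its synthases, held at the chondrocyte surface by CD44, and broken down by hyaluronidases and by the Cemip proteins. Versican is the lectican of developing and fibrous tissue and binds the same polymer.

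Libraries held 12479443 to 16548002 estimated counts. The naive replicate 2 library detected 16770 genes at 10 counts or more and the others 18245 to 19271. The labels give chondrocyte as the cell type, and the defining chondrocyte genes were present, with Col2a1, the main cartilage collagen, between 15101 and 36986 normalised counts in naive and between 40178 and 97826 in DMM. Markers of bone and marrow were present too. The 10 chondrocyte markers together made up 0.196 to 0.386% of counts in naive and 0.512 to 0.995% in DMM, and Col2a1 had the highest counts among them. Of the 10, 4 were called higher (Col2a1, Col11a1, Col11a2 and Sox9). The rest were not called, with log2 fold changes from -0.36 for Col9a1 and -0.29 for Matn3 to 0.57 for Snorc. The 8 osteoblast and osteocyte markers made up 0.875 to 1.28% in naive and 2.50 to 3.11% in DMM, with 8 of 8 called higher. The 8 neutrophil markers made up 0.814 to 1.14% in naive and 0.381 to 0.804% in DMM, with 8 of 8 called lower, and 6 of 7 erythroid markers were called lower. Of the 8 synovial fibroblast markers 4 were called higher (Cdh11, Thy1, Pdpn and Pdgfra) and 0 lower. The rest were not called, with log2 fold changes of 0.55 for Cd248, -0.25 for Clic5, -0.39 for Htra4 and -0.54 for Prg4. The list median was 0.58 against 0.57 for the chondrocyte list, while the summed share of the synovial list overlapped (0.204 to 0.714% in naive and 0.234 to 0.409% in DMM). The parts of these shifts in the values given here were not tested beyond the 2 refits described after the results. Those refits used only the chondrocyte, neutrophil and erythroid markers. In such bulk libraries, more cells of a type and more RNA per cell cannot be told apart.

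**Figure D1:**
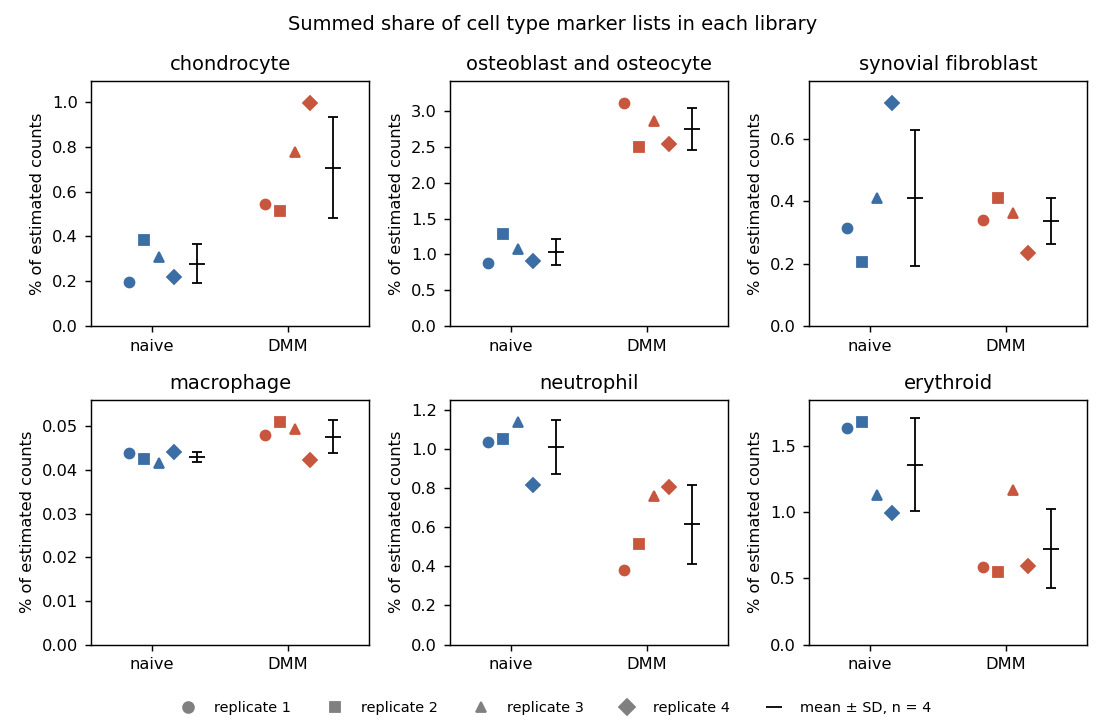
Share of each library's estimated counts (%) in 6 lists of cell type markers, for 4 naive (blue) and 4 DMM (orange) libraries, with the mean ± SD beside each group. The summed shares of the chondrocyte list and of the osteoblast and osteocyte list were higher in every DMM library than in any naive library. That of the neutrophil list was lower, while those of the macrophage, synovial fibroblast and erythroid lists overlapped.

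The genes lie on 7 chromosomes (GENCODE vM21, GRCm38), and all 9 are protein coding. Acan is at 7:79053483-79115099 on the plus strand, and its 3′ end lies 2 bases from that of Hapln3 on the minus strand. Vcan (13:89655312-89742509, minus strand) and Hapln1 (13:89539796-89611652, plus strand) are neighbours, 43.7 kb apart with 0 coding genes between them. Hyal1 (9:107576927-107581710) and Hyal2 (9:107567945-107572779) are 4.1 kb apart on the plus strand. Has1 is at 17:17843323-17855205, Has2 at 15:56665627-56694539 and Cd44 at 2:102811141-102901665, each on the minus strand, and Has3 is at 8:106870242-106884566 on the plus strand.

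RefSeq promoter windows (GRCm38.p6) were held for 7 of the 9 genes. Each was searched over the 250 bases before the RefSeq start, on both strands, for the CCAAT box, the ACAAT core bound by Sox proteins and the TATAAA box. CCAAT was found in 4 of the 7 windows, against 33.9% of 32851 promoters. All of the called genes, Acan, Vcan and Has1, held 1 CCAAT match, and the 30 bases around it are shown for these genes only. Capitals mark the motif, which reads ATTGG where it lies on the strand opposite to the gene. The windows are chr7:79053104-79053133 (plus strand), chr13:89742598-89742627 (minus strand) and chr17:17855374-17855403 (minus strand), and the motifs begin 110, 103 and 203 bases before the RefSeq starts.
Acan: ctccccccgcagATTGGccccgggggtggg
Vcan: cacccccagccgATTGGtacttctcatcag
Has1: ggttgtgaaaggCCAATttgaggggcagag
Hyal1, which was under the fold threshold, also held 1 match, 49 bases before its start. ACAAT was found in 1 of the 7 windows, that of Hapln1, against 27.7% of all promoters. TATAAA was found in 0 of 7, against 12.4% of all promoters. The Acan window was 74.4% G and C and the Vcan window 62.4%, against a median of 52.4% over all promoters. A match describes these letters only.

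Acan and Vcan rose after DMM, and none of the 9 genes fell. A gene is called when the DESeq2 adjusted p over all genes is 0.05 or less and the change is 1.5-fold or more. Of the 9 genes, 3 were called, all higher, against 13.7% of all tested genes called in either direction and 7.75% called higher. Beside Acan and Vcan this was Has1, whose groups overlapped and which edgeR and limma-voom did not call. All 9 log2 fold changes were above 0, with a median of 0.68 against -0.02 over all tested genes. Complete separation of DMM from naive libraries was seen for 3 of the 9 (Acan, Vcan and Hyal1), against 22.2% of all tested genes.

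**Figure D2:**
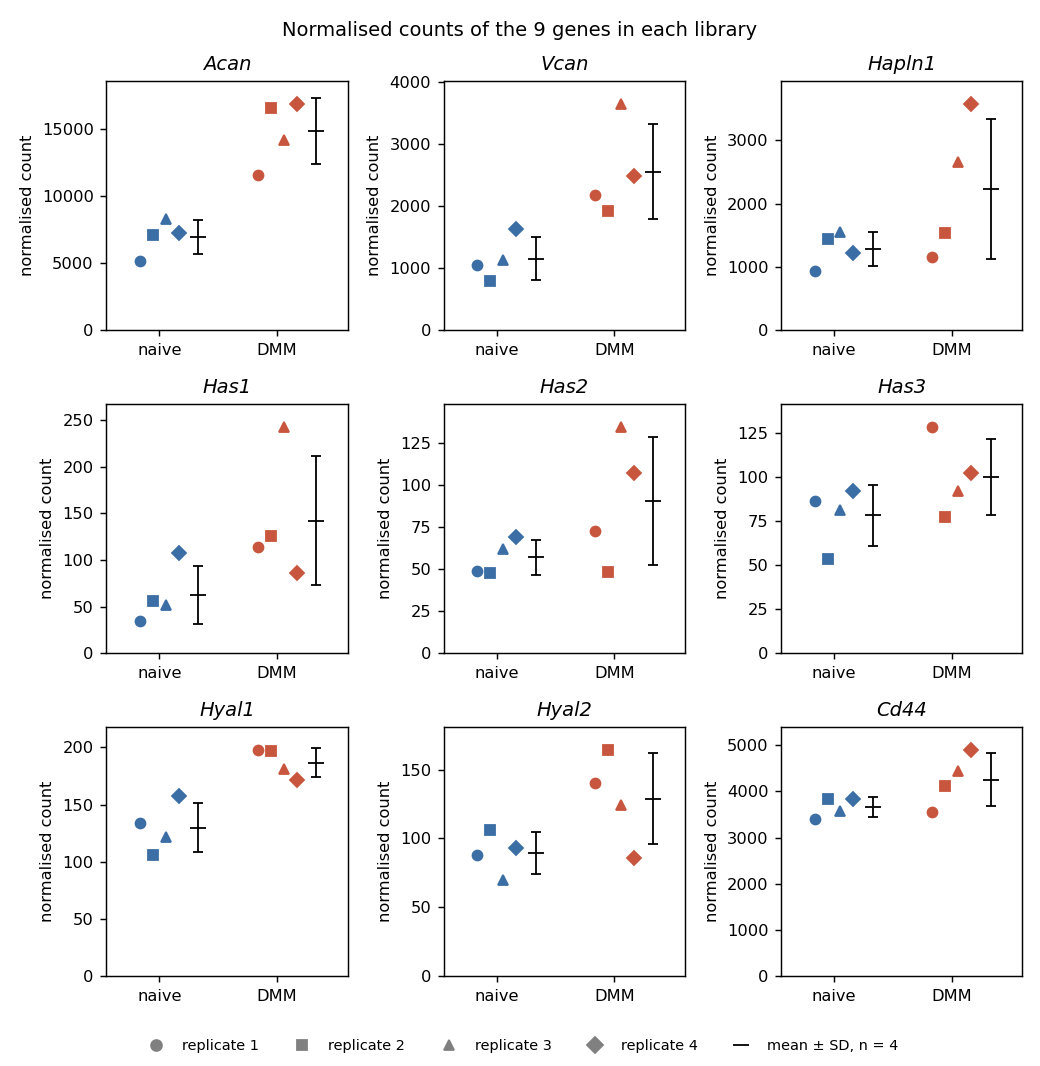
Normalised counts of the 9 genes (vertical axes, each from 0) in 4 naive (blue) and 4 DMM (orange) libraries, with a symbol for each replicate and the mean ± SD beside each group. Acan, Vcan and Hyal1 separated the groups completely, and Hapln1 split the DMM libraries, with replicates 1 and 2 among the naive values and replicates 3 and 4 above them.

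Acan, the aggrecan core protein, had 5203, 7135, 8260 and 7249 normalised counts in naive replicates 1 to 4 and 11598, 16567, 14197 and 16873 in the DMM replicates. The lowest DMM library lay above the highest naive library. The mean went from 6962 ± 1277 to 14809 ± 2452 (SD, n = 4 per group). Its log2 change was 1.09 ± 0.17 (SE, adjusted p = 7.75e-09 by DESeq2), which is 2.13-fold with a 95% interval from 1.70 to 2.66. Acan was called whichever of the 8 libraries was left out.

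Vcan, versican, had 1058, 796, 1131 and 1628 normalised counts in naive and 2174, 1919, 3649 and 2485 in DMM. Its groups did not overlap either, with DMM replicate 3 the highest. The mean went from 1153 ± 348 to 2557 ± 764 (SD, n = 4 per group). This was 1.15 ± 0.23 on the log2 scale (SE, adjusted p = 2.76e-05 by DESeq2) or 2.22-fold with a 95% interval from 1.62 to 3.04. It too was called whichever library was left out. The counts are per gene, so the versican splice forms, which differ in chondroitin sulfate attachment, were not separated.

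Hapln1, the link protein, was not called. It had 945, 1443, 1554 and 1218 normalised counts in naive and 1155, 1538, 2652 and 3578 in DMM. DMM replicates 1 and 2 lay within the naive range and replicates 3 and 4 above it, and the coefficient of variation was 49.3% in DMM against 20.9% in naive. The log2 fold change of 0.79 (SE 0.39) had an adjusted p of 0.130 by DESeq2, with a 95% interval from 1.02-fold to 2.92-fold. DMM replicates 3 and 4 were also the DMM libraries with the larger chondrocyte marker share (0.777 and 0.995% against 0.545 and 0.512%). They also had the larger neutrophil share (0.759 and 0.804% against 0.381 and 0.514%). Without DMM replicate 1, Hapln1 was called (log2 fold change 1.01, DESeq2 adjusted p = 0.00194).

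Ratios within a library do not depend on how libraries are scaled. The log2 ratio of Hapln1 to Acan counts was -2.46, -2.31, -2.41 and -2.57 in naive. In DMM it was -3.33 and -3.43 in replicates 1 and 2, below every naive library, and -2.42 and -2.24 in replicates 3 and 4, close to the naive values. The mean difference of -0.42 was within the spread (two-sided exact permutation test over 70 assignments, p = 0.371, 0.771 adjusted over 3 ratios), where the smallest p the design allows is 0.0286. The log2 ratio of Vcan to Acan was between -3.17 and -2.15 in naive and between -3.11 and -1.96 in DMM. It differed by 0.06 between the groups (exact permutation p = 0.857, adjusted 0.857), and the sign turned when naive replicate 2, naive replicate 3 or DMM replicate 3 was left out (-0.12, -0.02 and -0.14).

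**Figure D3:**
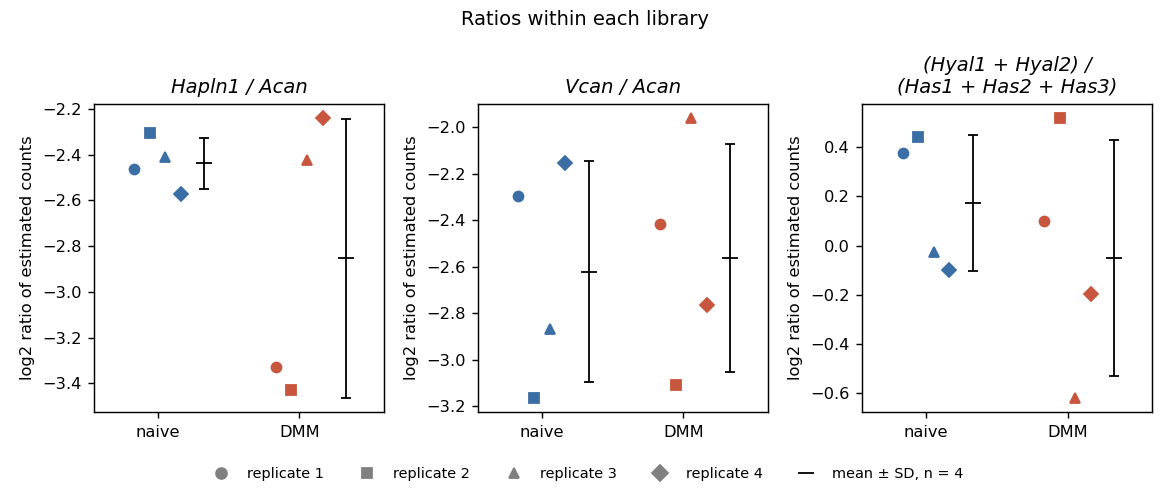
Log2 ratios of estimated counts within each library for Hapln1 over Acan, Vcan over Acan, and both hyaluronidases over the 3 synthases, in naive (blue) and DMM (orange), with the mean ± SD beside each group. The groups overlap in all 3 panels, and DMM replicates 1 and 2 have the lowest Hapln1 to Acan ratios, at -3.33 and -3.43.

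The hyaluronan synthases were far less abundant, with 36.4 to 295 estimated counts per library, and of the 3 only Has1 was called. Has1 had 35.2, 55.9, 51.4 and 108 normalised counts in naive and 114, 126, 243 and 85.7 in DMM. The groups overlapped, since naive replicate 4 lay above DMM replicate 4. Its log2 change was 1.19 ± 0.37 (SE, adjusted p = 0.0106 by DESeq2), or 2.28-fold with a 95% interval from 1.37 to 3.79. The call was lost without naive replicate 1 (DESeq2 adjusted p = 0.0531) and without DMM replicate 3 (0.0851, log2 fold change 0.80). It was also lost with edgeR's quasi-likelihood test (adjusted p = 0.0542) and limma-voom (0.0538). By edgeR, 2 of the 9 genes were called, Acan and Vcan, against 11.3% of 18445 genes tested.

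Has2, the synthase usually credited with most hyaluronan in cartilage, had 49.3, 47.9, 62.1 and 69.2 normalised counts in naive and 73.0, 48.4, 135 and 107 in DMM. DMM replicate 2 stayed at the level of naive libraries. Its log2 fold change of 0.68 had an adjusted p of 0.107 by DESeq2 (95% interval from 1.04-fold to 2.45-fold). Has3 had 53.2 to 91.8 normalised counts in naive and 77.4 to 129 in DMM, and its log2 fold change was 0.35 (DESeq2 adjusted p = 0.311). Has2 and Has3 overlap other genes on the opposite strand over 4.30% and 5.52% of their exon bases, and the sources used here do not give the strand setting.

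Of all synthase counts, Has1 made up 30.6% ± 8.8 in naive and 41.7% ± 11.0 in DMM (SD, n = 4 per group). Has2 made up 29.2% ± 2.6 and 26.9% ± 7.5, and Has3 40.0% ± 7.8 and 31.4% ± 8.8. The ranges of the groups overlapped for each of the 3 genes, so the make-up of the synthase pool was not shown to differ.

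Hyal1 and Hyal2 encode the main hyaluronidases outside the testis, Hyal2 at the cell surface and Hyal1 in the lysosome. Hyal1 had 134, 106, 122 and 158 normalised counts in naive and 198, 197, 181 and 172 in DMM, without overlap. Its log2 fold change of 0.52 (SE 0.17) had an adjusted p of 0.0113 by DESeq2, but at 1.43-fold it stayed under the fold threshold. This value is uncertain, since 50.7% of the 31-base words in Hyal1 transcripts also occur in other genes, and Naa80 on the same strand shares 50.8% of its exon bases. Naa80 itself had a log2 change of 0.12 (adjusted p = 0.706 by DESeq2). Hyal2 had 87.9, 106, 69.6 and 93.0 normalised counts in naive and 140, 165, 124 and 85.7 in DMM. Here 3 DMM libraries lay above all naive libraries and replicate 4 among them (log2 fold change 0.53, SE 0.24, DESeq2 adjusted p = 0.0888).

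The ratio of hyaluronidase to synthase counts compares transcripts of Hyal1 and Hyal2 with those of Has1, Has2 and Has3. It does not measure breakdown or synthesis of hyaluronan. The ratio leaves out the Cemip genes, and it carries the uncertainty of the Hyal1 counts given above. Its log2 value was between -0.10 and 0.44 in naive and between -0.62 and 0.52 in DMM. The difference of -0.22 was within the spread between libraries (two-sided exact permutation p = 0.514, adjusted 0.771).

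Cd44, the main cell surface receptor for hyaluronan, had the smallest log2 change of the 9 genes. It had 3402, 3837, 3584 and 3839 normalised counts in naive and 3559, 4115, 4449 and 4908 in DMM, where 3 libraries lay above every naive library. Its log2 change was 0.22 ± 0.12 (SE, adjusted p = 0.184 by DESeq2), with a 95% interval from -0.01 to 0.45, which ends below 1.5-fold. Cd44 is also made by marrow and immune cells, whose markers were present in these libraries.

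**Figure D4:**
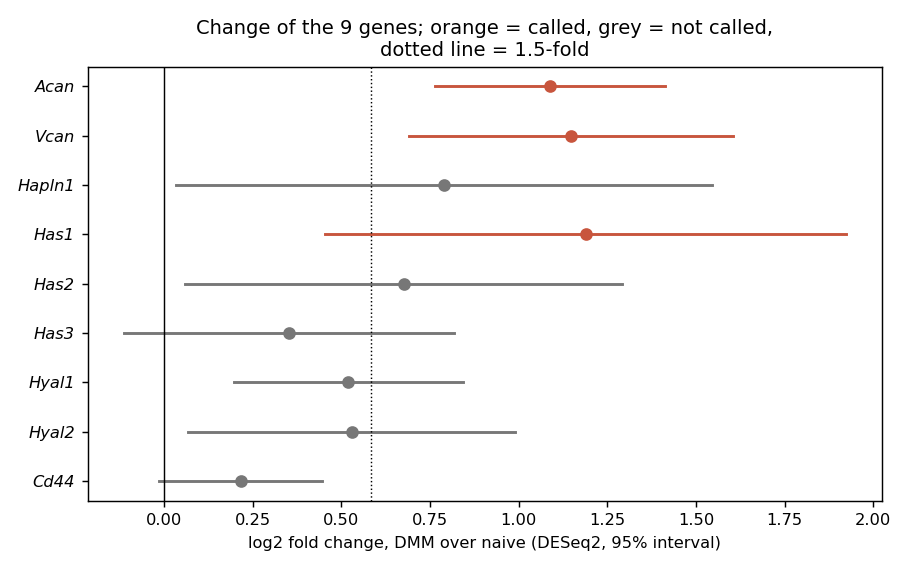
Log2 fold change, DMM over naive, with 95% intervals from DESeq2 (horizontal axis) for the 9 genes, with called genes in orange, the others in grey and 1.5-fold as a dotted line. All 9 estimates are above 0, and the intervals of Has3 and Cd44 include 0.

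Levels were compared between genes as normalised counts per kilobase of merged exons. In naive cartilage Acan came first at 932 ± 171, followed by Cd44 at 541 ± 31, Hapln1 at 219 ± 46 and Vcan at 79.7 ± 24.1 (SD, n = 4), and each of these neighbours was separated in every library. Below them Hyal1 (34.4), Hyal2 (27.1), Has1 (13.8), Has2 (13.5) and Has3 (12.3) overlapped from each to the next. In DMM the order of the means was the same, with Acan at 1983 ± 328, Cd44 at 628 ± 84, Hapln1 at 378 ± 186 and Vcan at 177 ± 53. There, however, Cd44 overlapped Hapln1 and Hapln1 overlapped Vcan. The 9 genes together took 0.0771 to 0.104% of counts in naive and 0.142 to 0.217% in DMM.

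For Acan and Vcan, the genes with the most similar pattern were looked for by the root mean square difference of centred log2 counts over the 8 libraries, among 11013 genes. Nearest to Acan were Kcna6 (0.13), a potassium channel gene, Col10a1 (0.14), the collagen of hypertrophic chondrocytes, and Gja1 (0.15), the gap junction gene. Col10a1 had 3851, 6093, 7240 and 5930 normalised counts in naive and 7872, 14859, 12022 and 15416 in DMM, so naive replicate 1 and DMM replicate 1 were lowest in their groups as for Acan. Nearest to Vcan were Slc7a2 (0.14), a transporter of basic amino acids, Tm4sf1 (0.16) and Cys1 (0.17), all highest in DMM replicate 3 as Vcan was. Acan and Vcan themselves differed by 0.42. Of the 7 genes abundant enough to enter this comparison (mean normalised count of 100 or more), the closest pairs were Hyal1 with Cd44 (0.286) and Hyal1 with Hyal2 (0.295). A small difference does not mean that 2 genes moved together. Over DMM replicates 1 to 4, Hyal1 fell from 198 to 172 normalised counts while Cd44 rose from 3559 to 4908.

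Around these 9 genes, 84 others from 8 lists were examined, and 72 had an adjusted p. DESeq2 called 17 higher and 1 lower, against 13.7% of all tested genes called in either direction and 7.75% called higher. The median log2 fold change of the 72 was 0.34, against -0.02 over all tested genes.

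Among the other lecticans and link proteins, 3 of 5 genes had an adjusted p and 0 were called by DESeq2, with 1 at an unadjusted p under 0.05. That gene, Hapln4, was named after its values were seen (9.0 ± 2.2 to 18.2 ± 0.7 normalised counts, SD, n = 4 per group) and was called by edgeR and limma-voom. Hapln3, whose 3′ end adjoins that of Acan, had 10.5 ± 4.4 and 16.6 ± 4.0 normalised counts (log2 fold change 0.65, DESeq2 adjusted p = 0.353).

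Matrix partners that bind hyaluronan or the lecticans held the most called genes beside the proteases, with 6 of the 11 with an adjusted p called higher and 0 lower. Over all tested genes, 7.75% were called higher. Comp, the cartilage oligomeric matrix protein, had a mean of 8288 ± 1483 normalised counts in naive and 21121 ± 6380 in DMM (SD, n = 4 each) and rose by 1.35 on the log2 scale (adjusted p = 6.4e-09 by DESeq2). Tnfaip6, which moves heavy chains onto hyaluronan, went from 9.7 to 37.4 counts in naive to 43.1 to 131 in DMM, with no overlap (log2 fold change 1.87, DESeq2 adjusted p = 0.000517). Tenascin C (Tnc) and fibronectin (Fn1) changed by 0.67 and 1.04 on the log2 scale. Of the inter-alpha-trypsin inhibitor heavy chain genes, Itih5 had a log2 change of -0.15 (adjusted p = 0.741 by DESeq2). Itih2 rose by 1.21 on the log2 scale, from 50.6 ± 22.5 to 117 ± 34.0 normalised counts with no overlap (SD, n = 4 each, adjusted p = 0.00215 by DESeq2). Itih2 and the remaining called gene, fibulin 2 (Fbln2, 0.88), were named after their values were seen.

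Of 7 other hyaluronan receptors, 1 was called in each direction. Layn, layilin, rose by 0.73 on the log2 scale, from 85.9 ± 10.8 to 142 ± 20.5 counts (SD, n = 4 each, adjusted p = 0.00152 by DESeq2). Hmmr, a hyaluronan receptor that also serves the mitotic spindle and marks dividing cells, fell by 0.74 (1456 ± 166 to 872 ± 174, DESeq2 adjusted p = 6.94e-05). The receptor genes Lyve1 and Stab1 had log2 fold changes of 0.27 and 0.57 (DESeq2 adjusted p = 0.809 and 0.00878), and that of Stab1 lay just under the fold threshold. Stab2, named after its values were seen, was at -0.03 (DESeq2 adjusted p = 0.951).

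Of the other hyaluronan-degrading genes, 1 of the 6 with an adjusted p was called. Cemip, which is needed for hyaluronan breakdown by fibroblasts, had 456 to 727 normalised counts in naive and 969 to 1328 in DMM and rose by 0.93 ± 0.17 on the log2 scale (SE, adjusted p = 3.06e-06 by DESeq2). Its relative Cemip2 had a log2 change of 0.32 (DESeq2 adjusted p = 0.0265), under the fold threshold, and Hyal3 had a log2 change of -0.19 (adjusted p = 0.851 by DESeq2).

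None of the 10 genes that supply the sugar precursors was called by DESeq2, edgeR or limma-voom, though 4 had an adjusted p of 0.05 or less by DESeq2. Ugdh, which makes UDP-glucuronic acid, had a log2 change of 0.26 (adjusted p = 0.204 by DESeq2), and Gfpt2 of 0.47 (adjusted p = 0.216 by DESeq2). The 4 genes, named after their values were seen, were the glycolytic Hk1, Hk2 and Gpi1, at -0.38, -0.45 and -0.46, and Gfpt1, at 0.29. Their DESeq2 adjusted p-values were 0.00692, 0.00441, 0.0033 and 0.0323, and the groups did not overlap for any of them. All 4 stayed under the fold threshold. Over all tested genes, the groups did not overlap for 22.2%, and the share at an adjusted p of 0.05 or less alone is not given here.

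Proteases that cut aggrecan and versican, with the inhibitor Timp3, held 6 called genes of the 9 with an adjusted p, all higher. Over all tested genes, 7.75% were called higher. By edgeR 4 of 8 were called, against 11.3% of all genes it tested. Mmp3, stromelysin, rose from 24.0 to 62.1 normalised counts in naive to 252 to 615 in DMM (log2 fold change 3.50, SE 0.35, DESeq2 adjusted p = 7.84e-20). Mmp13, collagenase, rose by 0.91 and Adamts9 by 0.65 on the log2 scale (adjusted p = 0.000222 and 0.000185 by DESeq2). The aggrecanase Adamts4 was called (log2 fold change 0.79, DESeq2 adjusted p = 0.0339) but not by edgeR (adjusted p = 0.0698). Its call was lost without naive replicate 1 or 2 or without DMM replicate 1, 3 or 4 (DESeq2 adjusted p from 0.0655 to 0.146). That of Adamts9 fell under the fold threshold without DMM replicate 1 or 2 (log2 fold change 0.57 in each). Adamts5, the main aggrecanase of mouse cartilage, had 877 ± 186 normalised counts in naive and 753 ± 167 in DMM (SD, n = 4 each), and its log2 change was -0.22 (adjusted p = 0.468 by DESeq2). Timp3, which inhibits both aggrecanases, had a log2 change of 0.42 (adjusted p = 0.0739 by DESeq2). The other called genes, named after their values were seen, were Adamts1 (0.78) and Adamts15 (0.96). The groups overlapped for both, and the call of Adamts15 was lost without naive replicate 1, naive replicate 2 or DMM replicate 1 (DESeq2 adjusted p = 0.0608, 0.0514 and 0.103).

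Of 23 genes that build and sulfate chondroitin sulfate chains, 2 were called, both higher, against the 13.7% of all tested genes called. Chpf and Chsy3, which polymerise the chain, rose by 1.21 and 1.03 on the log2 scale (adjusted p = 2.89e-10 and 3.32e-06 by DESeq2). Xylt1, which starts the chain, and the sulfotransferase gene Chst11 had log2 changes of 0.34 and 0.52 (DESeq2 adjusted p = 0.00915 and 0.00484) and stayed under the fold threshold. In all, 9 of the 23 had an adjusted p of 0.05 or less. The share of all tested genes at that threshold alone is not given here, so this count has no background to compare with. Of the Sox factors that act on the Acan gene, Sox9 had 839 ± 53 normalised counts in naive and 1764 ± 459 in DMM (SD, n = 4 each) and rose by 1.07 on the log2 scale (adjusted p = 5.36e-07 by DESeq2). Sox6, named with Sox5 after its values were seen, had 1815 ± 266 normalised counts in naive and 1219 ± 263 in DMM (SD, n = 4 each) without overlap, and its log2 fold change of -0.57 (adjusted p = 0.00557 by DESeq2) stayed under the fold threshold. It passed that threshold, lower in DMM, without naive replicate 3, naive replicate 4 or DMM replicate 3 (log2 fold change -0.63, -0.64 and -0.72). In the refit with neutrophil and erythroid markers as a covariate, given below, all 3 Sox genes were above 0. That covariate is largely shared with the groups, so the sign of Sox6 in the refit decides nothing about its lower counts in DMM. Sox5 was not called (0.34, adjusted p = 0.250 by DESeq2).

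**Figure D5:**
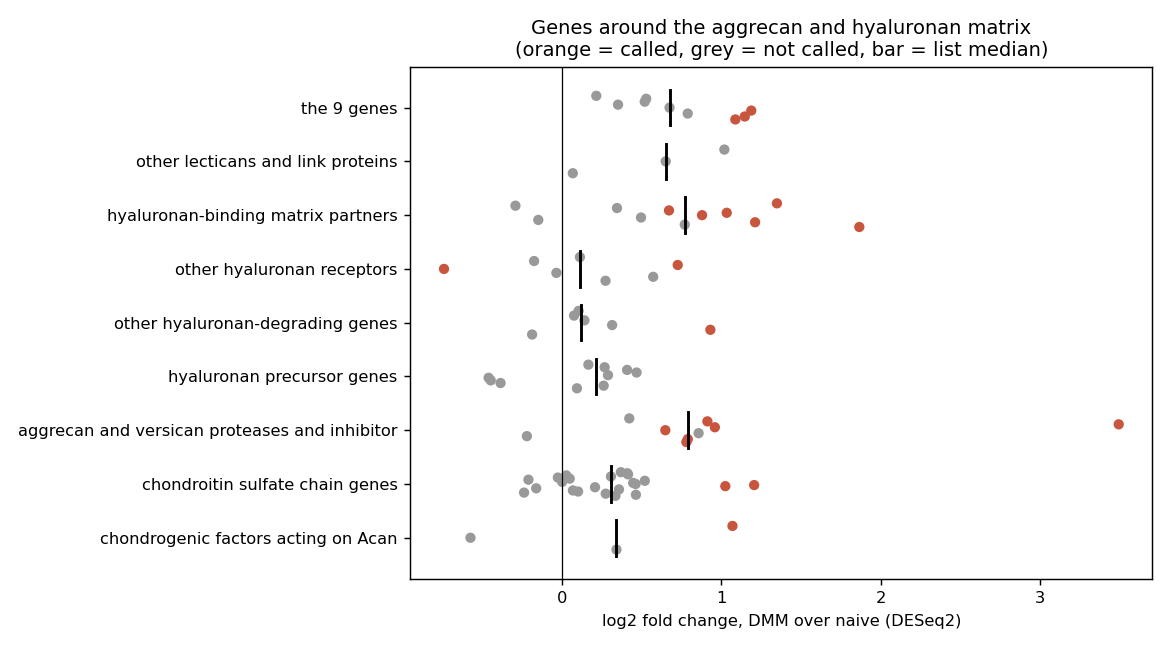
Log2 fold change, DMM over naive, from DESeq2 (horizontal axis) for the 9 genes and for each of 8 lists of related genes with an adjusted p, with called genes in orange, others in grey and the list median as a bar. Called genes were 6 of 11 among the matrix partners and 6 of 9 among the proteases, against 7.75% of all tested genes called higher. The lists were chosen with earlier results of these data known. Hmmr at -0.74 is the 1 called gene below 0.

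Both refits that use marker levels were chosen after the data were seen. The osteoblast and osteocyte markers and the synovial fibroblast markers entered neither, so the part of those shifts was not tested. The first took the mean level of neutrophil and erythroid markers as a covariate, which was higher in every naive library (0.20 to 1.32 SD units) than in any DMM library (-1.46 to 0.05), so it is largely shared with the groups. In it Acan kept its call (log2 fold change 1.12, DESeq2 adjusted p = 0.0256). Vcan (1.28, adjusted p = 0.117) and Has1 (1.34, adjusted p = 0.508) lost theirs by DESeq2, and Hapln1 gained one (1.68, adjusted p = 0.0230). Of the 84 listed genes 4 were called in this refit, and Hmmr was at -0.16 (DESeq2 adjusted p = 0.874). With the 10 chondrocyte markers as the scale, 0 of the 9 genes were called by DESeq2 and 0 had an unadjusted p under 0.05. Each marker had the same weight in that scale. Within naive, Matn3 ran from 18.5 to 330 and Col9a1 from 98.5 to 1711 normalised counts. The scale therefore adds spread between libraries of a group, and the lack of calls on it decides nothing about these genes. That scale took the median of all genes to -0.71, and on it Acan was at 0.43 (DESeq2 adjusted p = 0.399), Vcan at 0.33, Has1 at 0.50 and Hapln1 at 0.01.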

How the data were processed

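The members and lists were chosen with earlier results of these data known. Per the study's methods, the authors trimmed the reads, quantified them with Kallisto and summed them to genes with tximport, and deposited estimated counts per gene (39.2% of values were not whole). Their methods name GRCm38 and the labels GRCh38, which could not be reconciled, and library kits are named differently in the labels and the methods. Coordinates were taken from GENCODE vM21 by gene ID. Counts were rounded, and DESeq2 version 1.42.0 in R version 4.3.3 fitted all 8 libraries (Wald test, median-of-ratios size factors, independent filtering at 0.05, unshrunken log2 fold changes), the test the authors name, with adjusted p-values over all genes. Named genes were the 9 members, up to 3 called genes per list with the smallest adjusted p, 19 genes fixed by name and the 3 nearest patterns of Acan and Vcan. edgeR version 4.0.16 and limma version 3.58.1 were alternatives. Between libraries of a group the counts differed well beyond sampling noise (chi-square per degree of freedom of 8.06 or more), so each counted as 1 replicate. The scripts were tested on simulated data.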

Additional observations from a re-analysis of the deposited data

Results flagged for a closer look

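Each value here lay far from the other 3 of its group (gap over range, Dixon's 95% limit). Of 78 groups of 4 values, 5 held such a value, where chance gives about 3.9 (1 in 20). Chsy3 had 148.5 normalised counts in naive replicate 4, against 113.1 to 114.5 in the other naive libraries. Sox9 had 918.3 in naive replicate 3, against 804.9 to 817.0. Hapln3 had 17.12 in naive replicate 3, against 7.92 to 9.07. Hyal3 had 12.84 in naive replicate 3, against 22.68 to 23.95. Timp3 had 4392 in DMM replicate 1, against 6749 to 7202 in the other DMM libraries. None of the 9 members was among them.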

How the results depend on the processing

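Of the 9 members, 3 were called by DESeq2, 2 to 4 across the 8 fits without 1 library, 6 with the total count as size factor and 0 on the chondrocyte marker scale. Total counts moved the median of all genes to 0.14 (log2) and the share of higher calls from 56.7% to 80.6%. Of the 84 listed genes 18 were called, 16 to 22 without 1 library, 4 with the neutrophil and erythroid covariate, 4 on the chondrocyte marker scale and 32 with no fold threshold. Over all genes 2429 were called (1377 higher and 1052 lower), 222 with the covariate (173 and 49) and 1372 on the marker scale, where 28 were higher and 1344 lower, so that the share of higher calls was 2.04%. Without 1 library, the ratio differences ran from -0.62 to -0.22 for Hapln1 to Acan, from -0.14 to 0.24 for Vcan to Acan (negative without naive replicate 2 at -0.1221, naive replicate 3 at -0.0232 and DMM replicate 3 at -0.1417) and from -0.41 to -0.03 for hyaluronidases to synthases. The design allows no p below 0.0286 for these.

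On the chondrocyte marker scale, log2 fold changes turned negative for Has2 (-0.1321), Has3 (-0.3832), Hyal1 (-0.1974), Hyal2 (-0.0853), Cd44 (-0.5119), Tnc (-0.0587), Layn (-0.0463), Adamts9 (-0.0110), Lyve1 (-0.3892), Stab1 (-0.0430), Cemip2 (-0.3913), Ugdh (-0.4660), Gfpt2 (-0.2428), Timp3 (-0.3420), Xylt1 (-0.3813) and Chst11 (-0.1770). By construction it subtracts the rise of its own markers. With the covariate Has3 turned to -0.0793, and Sox6 turned positive. Without 1 library, Itih5 ran from -0.358 to 0.0844 and Lyve1 from -0.0545 to 0.783, and the cause was not tested.

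Same-numbered libraries of the groups correlated at 0.0498, 0.0580, -0.119 and 0.117 in their deviations, 1 of 4 best with its own number, so the numbers do not pair them. With the replicate block, 2081 genes were called, among them 4 of the 9 members, with Hapln1 added (log2 fold change 0.67, DESeq2 adjusted p = 0.0225). The blocked ratio differences were the same, at -0.42, 0.06 and -0.22, with sign-flip p-values of 0.375, 0.875 and 0.25 by an exact test that cannot go below 0.125. Depth limits the 3 synthase genes, at 36.4 to 295 estimated counts per library.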
